A study of Homo sapiens with 51 samples.

Results

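The genes described here are 28 genes of cholesterol and fatty acid synthesis in the human embryonic stem cell line H1, an established line, as it was exposed to BMP4 with or without Activin A. The members were chosen by name, as enzymes and regulators of the pathway, and were found as 28 of the 58051 gene rows of the count table. The choice was made with earlier results of these data known, including a dip near 6 h. The counts of members that fell at 6 h describe that dip and are no independent test of it. The members comprise 7 genes of the mevalonate arm, 3 genes that make squalene and lanosterol, 8 genes that turn lanosterol into cholesterol, 4 genes of regulation and sterol transport, and 6 genes of fatty acid synthesis. The table held 51 libraries of total RNA in 17 groups of 3. The untreated group (0 h) was grown in mTeSR, a stem cell maintenance medium. The Activin+BMP4 groups received 100 ng/mL Activin and 10 ng/mL BMP4, and the BMP4 groups received 50 ng/mL BMP4 with no Activin. Each condition was sampled at 1, 6, 12, 24, 36, 48, 72 and 96 h. The medium of all treated cells was TeSR E5, to which FGF2, insulin and LY29004 (spelled so in the labels) were added, so the untreated cells were no control for the medium, and the ligands and the change of medium cannot be told apart in a comparison with them. Activin and the BMP4 dose differed together between the conditions. Nothing in the labels says that replicates came from separate cultures, so the p-values reflect only how far these libraries vary, and that variation may be technical.

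Cholesterol is built from acetyl-CoA. The mevalonate arm makes isoprene units, which are joined into squalene, closed into the ring of lanosterol and then trimmed to cholesterol by a chain of endoplasmic reticulum enzymes. Fatty acids also start from acetyl-CoA, and both routes are governed by the sterol regulatory element binding proteins, transcription factors that are held in the endoplasmic reticulum while sterol is plentiful and released to the nucleus when it is scarce. SREBF2 encodes the form best known for sterol genes, SREBF1 encodes the form best known for fatty acid genes, and INSIG1 encodes a protein that holds both in the endoplasmic reticulum and is itself a target of theirs.

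Libraries held 22788905 to 30354633 counts, and log expression correlated at 0.9916 or more between libraries of a group. Library 2 of Activin+BMP4 at 48 h, library 3 of Activin+BMP4 at 96 h and library 1 of BMP4 at 12 h stood apart from their groups. This was judged without a test, and leaving them out is described beside the results they touch. Other libraries also differed from their groups, by the chi-square per degree of freedom between the gene counts of library pairs. For library 2 of Activin+BMP4 at 36 h it was 10.2 and 15.3, against 4.05 between libraries 1 and 3. For library 1 of BMP4 at 72 h it was 16.5 and 16.9, against 7.92 between libraries 2 and 3. In the untreated libraries the summed level of 6 pluripotency markers was 3692 to 3802 CPM (counts scaled to the same library total with TMM factors), and the summed level of 4 definitive endoderm markers was 1.13 to 1.97 CPM.

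All 28 members were among the 19603 genes tested. A gene passed when its Benjamini-Hochberg adjusted p in edgeR's quasi-likelihood test was under 0.05, and "rose" and "fell" are used only for such genes. A change is called 2-fold when the gene passed and its log2 fold change was at least 1 in either direction. Log2 fold changes are given with their standard error and group values as mean ± SD with n = 3.

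In untreated cells the levels per exon length, in RPKM (CPM divided by the exon length in kilobases), spanned the range from SCD to MVK. SCD, the desaturase that makes oleic acid, stood at 465 ± 7.74 RPKM. HMGCS1, which joins acetyl-CoA units into HMG-CoA, and FASN, the fatty acid synthase, followed at 143 ± 3.95 and 143 ± 4.19 RPKM and did not differ beyond their spread. FDFT1, the squalene synthase, was at 76.9 RPKM and CYP51A1, the lanosterol demethylase, at 69.9 RPKM. At the lower end were SREBF1 at 8.28 RPKM, HSD17B7 at 4.87 RPKM and MVK, the mevalonate kinase, at 2.31 ± 0.17 RPKM. A near-identical pseudogene makes the HSD17B7 value uncertain.

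The upstream sequence of 5 of the 6 members with the largest fall at 6 h is shown because these members fell together, and because promoters of this pathway are known to carry an NF-Y box, CCAAT, beside a sterol regulatory element. The stretches are from RefSeq promoters of GRCh38.p14, are read 5′ to 3′ on the strand of the gene, and lie outside annotated exons. CYP51A1 held no such stretch. For each gene the 80 bases that held most matches were taken, so that each holds a match was set by the choice. Capitals mark matches to CCAAT, or ATTGG on the other strand, and to CACNCCAC, the inner part of the sterol element TCACNCCAC, on either strand.
HMGCS1, chr5:43313526-43313605, minus strand, bases 193 to 114 before the start: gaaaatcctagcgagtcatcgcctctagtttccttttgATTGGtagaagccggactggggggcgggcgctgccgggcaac
INSIG1, chr7:155297651-155297730, plus strand, bases 227 to 148 before the start: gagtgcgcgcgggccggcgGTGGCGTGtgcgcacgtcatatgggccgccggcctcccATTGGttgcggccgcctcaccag
DHCR7, chr11:71448436-71448515, minus strand, bases 122 to 43 before the start: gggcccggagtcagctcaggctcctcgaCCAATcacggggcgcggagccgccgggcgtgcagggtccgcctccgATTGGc
MVD, chr16:88663172-88663251, minus strand, bases 160 to 81 before the start: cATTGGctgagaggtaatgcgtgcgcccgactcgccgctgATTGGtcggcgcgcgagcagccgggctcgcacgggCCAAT
IDI1, chr10:1049195-1049274, minus strand, bases 155 to 76 before the start: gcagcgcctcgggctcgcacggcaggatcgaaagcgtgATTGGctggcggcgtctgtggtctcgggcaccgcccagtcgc
The stretch of INSIG1 holds a match to each motif.

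RefSeq promoters, 250 bases before to 50 after a start, matched 24 of the 28 members with 32 promoters. CCAAT was in 22 of the 32 (68.8%) and in 34.6% of all 35116 promoters. The SP1 box GGGCGG was in 28 of the 32 (87.5%), against 45.0% of all promoters and 63.2% of the promoters of genes tested here. The inner sterol element CACNCCAC was in 7 of the 32 (21.9%), in the promoters of INSIG1, IDI1, SCD, SC5D, ACACA and SREBF2, against 5.87% of all. The full TCACNCCAC, which contains it, was in 1 of the 32 (3.13%), that of SREBF2, against 1.13% of all. These shares describe letters in the window and say nothing of binding.

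**Figure D1:**
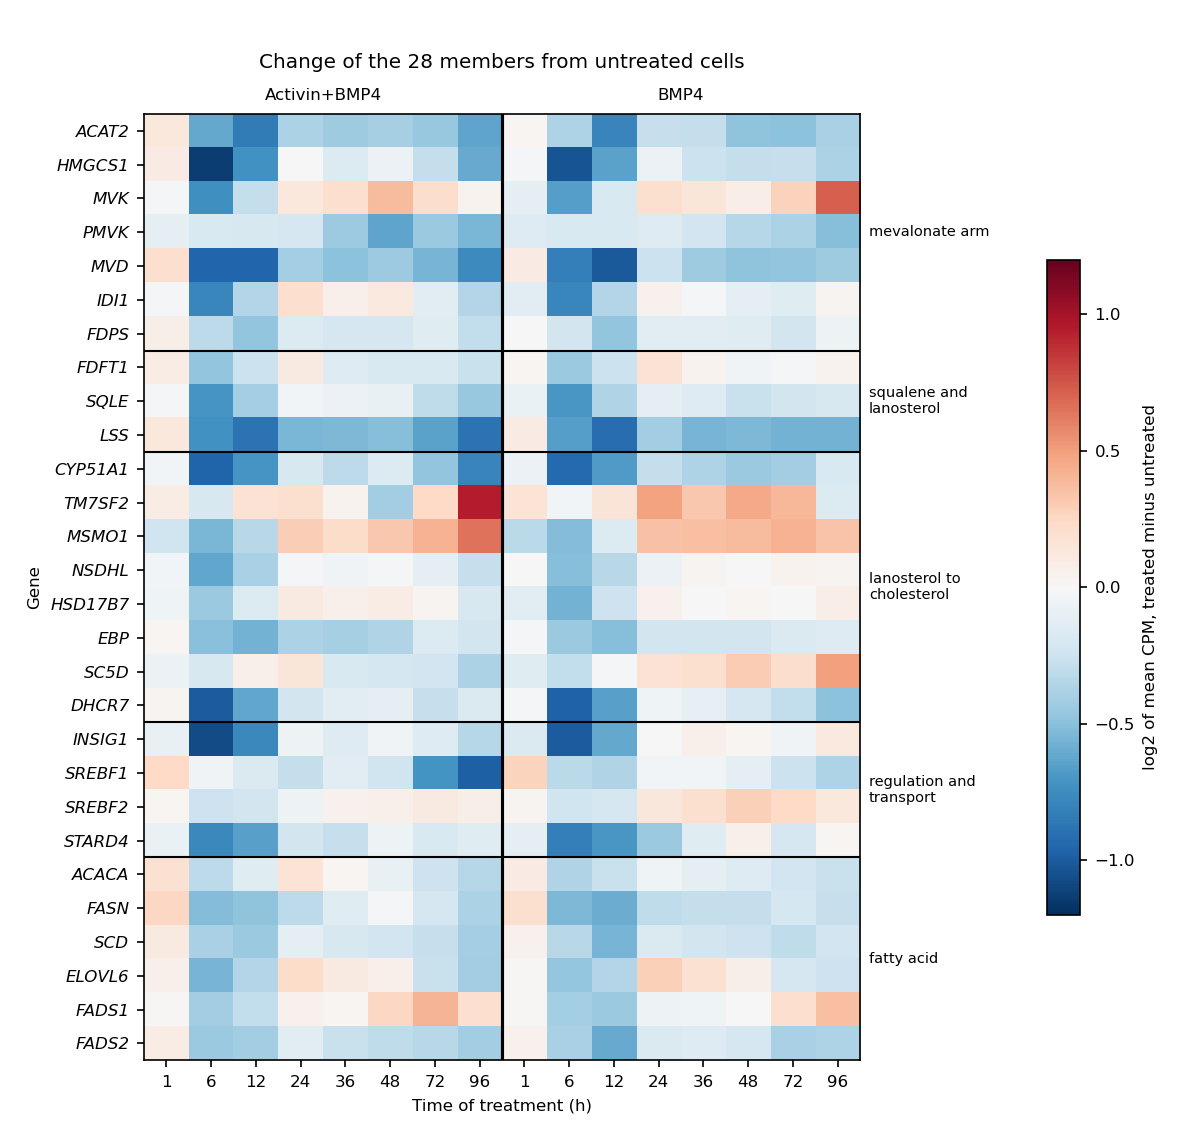
Log2 of each member's group mean CPM relative to its untreated mean, for the 28 members (rows, by role) in the 8 times of each condition (columns); blue is below and red above untreated. The 6 h columns are below untreated in every row, though not every change passed, with HMGCS1 at -1.14 in Activin+BMP4. The strongest rise is that of TM7SF2 at 96 h in Activin+BMP4, at 0.94.

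Most of the pathway fell by 6 h in both conditions. Against untreated cells 26 of the 28 members fell in Activin+BMP4, with a median log2 fold change of -0.54. In BMP4 26 fell, with a median of -0.49. Among all genes 18.4% fell and 17.7% rose in Activin+BMP4, 18.2% fell and 16.6% rose in BMP4, and the median over all genes was 0.01 in each. The libraries of both groups did not overlap in any of the 26 members that fell, in either condition. These members had already passed the test, so the separation adds nothing to it. The share of all genes without overlap was not counted. Both comparisons use the same 3 untreated libraries. The mitochondrial share of counts at 6 h was 2.78 to 2.82% in Activin+BMP4 and 1.70 to 2.29% in BMP4. It was 2.29 to 2.75% in untreated libraries, and its part in the fall was not tested. At 1 h the pathway had moved little: 4 members had risen and 1 had fallen in Activin+BMP4 (8.18% of all genes passed in either direction), and 1 had risen and 2 had fallen in BMP4 (10.3% of all genes). These 1 h counts changed when single libraries were left out. In Activin+BMP4 2 had risen without untreated library 1 or 2, 1 without library 1 of the 1 h group, and 0 without untreated library 3 or library 2 of the 1 h group. In BMP4 0 had risen without untreated library 2 or 3 or library 1 of the 1 h group, and 1 had fallen without untreated library 2. When just the compared groups were fitted, 10 had risen in Activin+BMP4, and 6 had risen and 4 had fallen in BMP4. MSMO1 was the member lower in both at 1 h, at -0.24 in Activin+BMP4 and -0.32 in BMP4, and SREBF1 the member higher in both, at 0.24 and 0.27.

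The mevalonate arm held the largest fall. HMGCS1 (chr5:43289395-43313512, GRCh38) measured 679, 688 and 652 CPM in untreated cells, 312, 306 and 297 CPM after 6 h of Activin+BMP4 and 343, 333 and 310.0 CPM after 6 h of BMP4. Every treated library lay far below the lowest untreated library. The log2 fold change was -1.14 ± 0.07 (edgeR adjusted p = 2.9e-17) in Activin+BMP4 and -1.03 ± 0.07 in BMP4. An antisense transcript covers 15% of the exon length of HMGCS1, and the sources used here do not give the strand setting of the counting. MVK shares 4.7% of its exon length with MMAB and SREBF1 6.9% with RAI1, each on the opposite strand. The largest overlaps were with genes for which no counts were given. CYP51A1 shares 79.4% of its exon length with a protein-coding gene on the same strand. ACAT2 shares 26.5% with an annotated SOD2 gene and 33.9% with SOD2-OT1, both on the opposite strand. MVD, the decarboxylase that makes isopentenyl diphosphate, went from 78.5, 78.2 and 72.7 CPM to 41.1, 38.2 and 39.0 CPM in Activin+BMP4 and to 40.7, 45.4 and 43.6 CPM in BMP4. IDI1, the isomerase of isopentenyl diphosphate, fell by 0.78 on the log2 scale in Activin+BMP4, and MVK by 0.74. ACAT2, the cytosolic thiolase at the entry of the arm, fell by 0.61 there and FDPS, the farnesyl diphosphate synthase, by 0.32. PMVK, the phosphomevalonate kinase, was the arm's exception. Its untreated values of 18.4, 19.9 and 16.3 CPM overlapped with 15.1, 16.9 and 16 CPM in Activin+BMP4 and 14.8, 17.2 and 16 CPM in BMP4 at 6 h, and it did not pass (-0.19 ± 0.08, adjusted p = 0.071, and -0.19, adjusted p = 0.072). It passed in both conditions without untreated library 3, and in each without library 2 of its own 6 h group. Of the arm's 7 genes 6 fell in each condition, with medians of -0.74 and -0.65.

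The 3 genes between farnesyl diphosphate and lanosterol all fell, with medians of -0.71 in Activin+BMP4 and -0.66 in BMP4. LSS, which closes the sterol ring, went from 224, 218 and 207 CPM to 134, 127 and 131 CPM in Activin+BMP4, a log2 fold change of -0.73. SQLE, the squalene epoxidase, fell by 0.71 and FDFT1 by 0.47.

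Of the 8 genes from lanosterol to cholesterol, 8 fell in Activin+BMP4 and 7 in BMP4, with a median of -0.52 in each. DHCR7 (chr11:71428193-71452868), the last reductase of the route through dehydrocholesterol, measured 178, 165 and 159.8 CPM in untreated cells. At 6 h it measured 82.0, 81.0 and 88.7 CPM in Activin+BMP4 and 82.6, 88.0 and 85.5 CPM in BMP4. Its treated libraries all lay below the lowest untreated library, with log2 fold changes of -1.0 ± 0.06 (adjusted p = 2.1e-17) and -0.97. CYP51A1 fell from 251, 252 and 249.6 CPM to 131, 129 and 126 CPM in Activin+BMP4 and to 135, 133 and 125 CPM in BMP4. TM7SF2, one of the sterol reductases of this segment, was the weakest. Its untreated values of 26.5, 23.7 and 23.3 CPM stood beside 19.9, 21.5 and 22.9 CPM in Activin+BMP4 and 22.2, 26.2 and 23.7 CPM in BMP4. Only the first comparison passed, at -0.19 (adjusted p = 0.03), and the second did not (-0.03 ± 0.07, adjusted p = 0.78). The first was lost without untreated library 1 (adjusted p = 0.175) or library 1 of Activin+BMP4 (adjusted p = 0.149). SC5D, the sterol desaturase before DHCR7, fell by 0.19 in Activin+BMP4, and did not pass without untreated library 2 or library 3 of Activin+BMP4.

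Among the regulators, INSIG1 (chr7:155297776-155310235) went from 86.8, 92.6 and 85.9 CPM to 41.6, 42.2 and 42.6 CPM in Activin+BMP4 and to 45.2, 44.1 and 43.7 CPM in BMP4. No library of either treated group came near the untreated range. The log2 fold changes were -1.07 ± 0.05 (adjusted p = 6.7e-22) and -1.0 ± 0.05. STARD4, a carrier that moves sterol between membranes, fell by 0.77 and 0.82. The transcription factor genes moved less. SREBF2 went from 309, 292 and 290.2 CPM to 249, 248 and 254 CPM in Activin+BMP4, a log2 fold change of -0.25, and was between 239.5 and 261 CPM in BMP4. SREBF1 measured 69.8, 65.3 and 64.4 CPM in untreated cells and 65.5, 65.5 and 62.3 CPM in Activin+BMP4, which overlapped, and did not pass (-0.05 ± 0.08, adjusted p = 0.69). In BMP4 it measured 49.9, 52.9 and 56.3 CPM, below every untreated library, and fell by 0.33 ± 0.08 (adjusted p = 0.00068).

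The 6 fatty acid genes all fell in both conditions, with smaller medians of -0.43 and -0.40. FASN went from 1383, 1329 and 1307 CPM to 968, 909 and 920.3 CPM in Activin+BMP4 and to 843, 901 and 1019 CPM in BMP4. SCD went from 2526, 2505 and 2446 CPM to 1964, 1871 and 1865 CPM in Activin+BMP4 and to 1983, 2015 and 1945 CPM in BMP4. In both genes the treated and untreated libraries were apart. ELOVL6, which lengthens palmitate, fell by 0.56 in Activin+BMP4, FADS2 and FADS1, the desaturases of polyunsaturated fatty acids, by 0.44 and 0.42, and ACACA, the acetyl-CoA carboxylase, by 0.31. FADS1 and FADS2 overlap by 490 bp of exon.

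**Figure D2:**
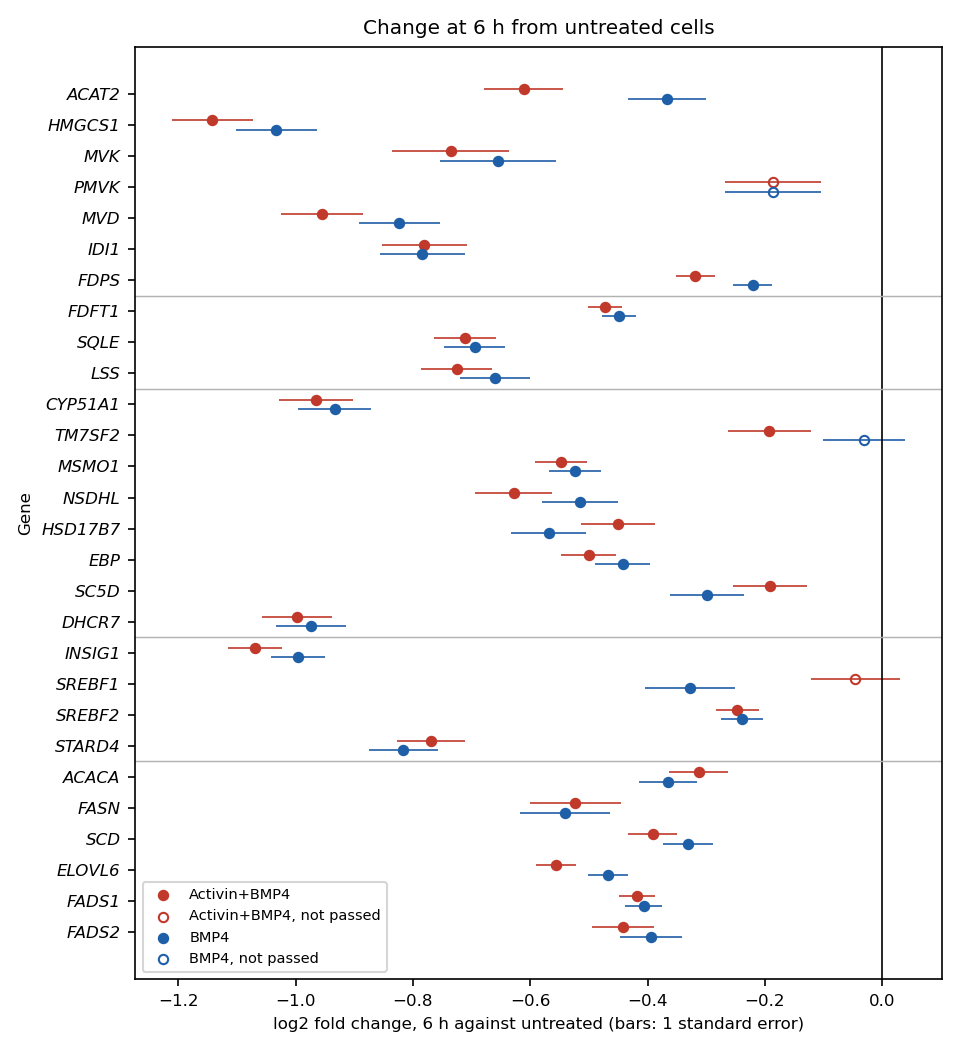
Log2 fold change at 6 h against untreated with its standard error (x axis) for each of the 28 members (y axis, by role), in Activin+BMP4 and BMP4, with open circles for values that did not pass. HMGCS1 lies farthest left at -1.14 and -1.03, and SREBF1 in Activin+BMP4, TM7SF2 in BMP4 and PMVK in both are the open circles.

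A 2-fold fall at 6 h was called for 2 members in Activin+BMP4 (HMGCS1 and INSIG1) and for 1 in BMP4 (HMGCS1), against 1.77% and 1.56% of all genes. DHCR7 in Activin+BMP4 and INSIG1 in BMP4 lay just short of the 2-fold line. The count in BMP4 was 2 without untreated library 1 or library 1 of BMP4, 3 without untreated library 3 and 0 without library 3 of BMP4. The treated cells were in the same base medium at 1 h and 6 h, and a response to that medium that came after 1 h cannot be told apart from one to the ligands, as no group received the medium alone. From 1 h to 6 h 26 members fell in Activin+BMP4 (18.1% of all genes) and 26 in BMP4 (18.9% of all genes), with medians of -0.58 and -0.47. PMVK and SC5D did not pass in either. The step shares no library between the conditions, and 26 members fell in both, against 13.1% of all genes. HMGCS1 fell over this step by 1.24 ± 0.07 on the log2 scale in Activin+BMP4 and by 1.02 ± 0.07 in BMP4.

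The time of the lowest group mean, which was not tested, differed among the members. Up to 24 h, 20 members were lowest at 6 h in Activin+BMP4, 6 at 12 h (ACAT2, MVD, FDPS, LSS, EBP and SCD) and 2 at 24 h (PMVK and SREBF1). In BMP4 18 were lowest at 6 h and 10 at 12 h. Some of these times were near ties. In Activin+BMP4 MVD was at -0.95 against untreated on the log2 scale at both 6 h and 12 h. PMVK was at -0.19, -0.19 and -0.20 there at 6, 12 and 24 h. From 6 h to 12 h 16 members rose and 3 fell in Activin+BMP4, where 11.3% of all genes rose and 10.2% fell. In BMP4 13 rose and 5 fell, where 9.15% rose and 8.43% fell. In both conditions together 13 members rose and 3 fell (5.90% and 5.26% of all genes). The count that fell in Activin+BMP4 dropped to 1 without library 1 of its 6 h group or without library 3 of its 12 h group. In BMP4 NSDHL (0.19, adjusted p = 0.0433) did not pass without library 1 of its 12 h group, nor without any other library of its 6 h and 12 h groups.

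Among the members that rose by 12 h, MVK went from 9.33, 8.81 and 8.84 CPM to 13.2, 13.2 and 10.5 CPM in Activin+BMP4 and from 10.7, 8.86 and 8.97 CPM to 12.4, 13.8 and 13.3 CPM in BMP4. The later libraries were the higher in BMP4 and in Activin+BMP4, with log2 fold changes of 0.47 ± 0.10 and 0.45 ± 0.10 (adjusted p = 0.00088 in Activin+BMP4). IDI1 rose from 81.2, 76.7 and 79.5 CPM to 114, 109.9 and 96.5 CPM in Activin+BMP4, and from 82.2, 78.5 and 76.2 CPM to 98.7, 111 and 109.6 CPM in BMP4, a log2 fold change of 0.43 ± 0.07 in each. HMGCS1 rose to 419, 424 and 379.9 CPM in Activin+BMP4 and to 404, 449 and 439.9 CPM in BMP4, still below untreated cells. DHCR7 rose by 0.38 and 0.32 on the log2 scale, SQLE by 0.30 and 0.33, and INSIG1 by 0.30 and 0.38.

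The 3 genes that fell further by 12 h in both conditions were ACAT2, FDPS and LSS. ACAT2 went from 176, 158 and 154 CPM to 142, 142 and 133 CPM in Activin+BMP4 (-0.22 ± 0.07, adjusted p = 0.014) and from 194, 199 and 184 CPM to 138, 147 and 146 CPM in BMP4 (-0.42 ± 0.07, adjusted p = 9.3e-06). FDPS went from 180.0, 177 and 174 CPM to 162, 160.1 and 156 CPM in Activin+BMP4. LSS reached 115, 119 and 115 CPM in Activin+BMP4 and 119.8, 111 and 112 CPM in BMP4, with changes of -0.17 (adjusted p = 0.048) and -0.26 (adjusted p = 0.0019). In Activin+BMP4 LSS did not pass without library 1 or 3 of the 6 h group, or without any single library of the 12 h group. ACAT2 did not pass there without library 1 at 6 h or library 3 at 12 h. ACAT2 shares 9.2% of its exon length with TCP1 and FDPS 18.6% with RUSC1-AS1. MVD did not pass in Activin+BMP4, with 42.4, 38.6 and 37.3 CPM at 12 h. SCD and FADS2 fell over this step in BMP4, by 0.23 and 0.21. The change from 6 h to 12 h differed between conditions for 0 members in edgeR's interaction test (6 at an unadjusted p under 0.05, and 1 by DESeq2), against 0.719% of all genes.

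Against untreated cells 24 members were still lower at 12 h in Activin+BMP4 (18.8% of all genes) and 24 in BMP4 (18.2% of all genes), with medians of -0.40 in both. TM7SF2 passed as higher in both without untreated library 1 (0.22 and 0.20). Most members rose again between 12 h and 24 h. From 12 h to 24 h 23 members rose in Activin+BMP4 (11.7% of all genes) with a median of 0.35, and 27 in BMP4 (8.24% of all genes) with a median of 0.38, and 23 rose in both (3.87% of all genes). PMVK was the member that did not pass in BMP4, and without library 1 of BMP4 at 12 h SC5D (0.14, adjusted p = 0.183) did not pass either. At 24 h HMGCS1 measured 694, 671 and 649 CPM in Activin+BMP4 and 638, 655 and 633 CPM in BMP4, and neither group passed against untreated cells (-0.00 and -0.07). INSIG1 was at 84.9, 84.9 and 84.9 CPM in Activin+BMP4 and 89.7, 90.0 and 86.1 CPM in BMP4, within reach of untreated cells (-0.06 and 0.00, not passed). ELOVL6 rose by 0.57 and 0.64 over the step and ended above untreated cells.

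The return was uneven. At 24 h 6 members were higher and 13 lower than untreated in Activin+BMP4 (20.5% of all genes higher and 19.5% lower), and 6 were higher and 10 lower in BMP4 (19.6% and 19.1%), with a median of -0.06 in each. Some of these calls hung on single libraries. In Activin+BMP4 PMVK and SCD, both lower, did not pass without untreated library 1 or 2 or library 2 or 3 at 24 h. FADS2, also lower, did not pass without untreated library 1 or 2 or any single 24 h library. TM7SF2, higher there, did not pass without untreated library 2 or 3 or library 3 at 24 h. In BMP4 SC5D, higher at 0.17, did not pass without untreated library 1 or 3. The genes that had fallen further at 12 h stayed lower: LSS at -0.55 and -0.42, ACAT2 at -0.38 and -0.28, and FDPS at -0.16 and -0.14. MVD was also lower, at -0.41 and -0.26. MSMO1, the methylsterol oxidase that follows CYP51A1, was higher at 0.29 and 0.35, and TM7SF2 at 0.19 and 0.49, with 26.8, 26.9 and 30.3 CPM in Activin+BMP4 and 33.2, 36.3 and 33.6 CPM in BMP4. The 2 transcription factor genes were the members whose change from 6 h to 24 h differed between the conditions (2 of 28, against 15.6% of all genes): SREBF1 by 0.53 ± 0.11 and SREBF2 by 0.19 on the log2 scale, higher in BMP4. FADS1 (-0.12, adjusted p = 0.0538) passed in the same test as lower without library 2 of either condition at 24 h or library 3 of BMP4 at 6 h.

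**Figure D3:**
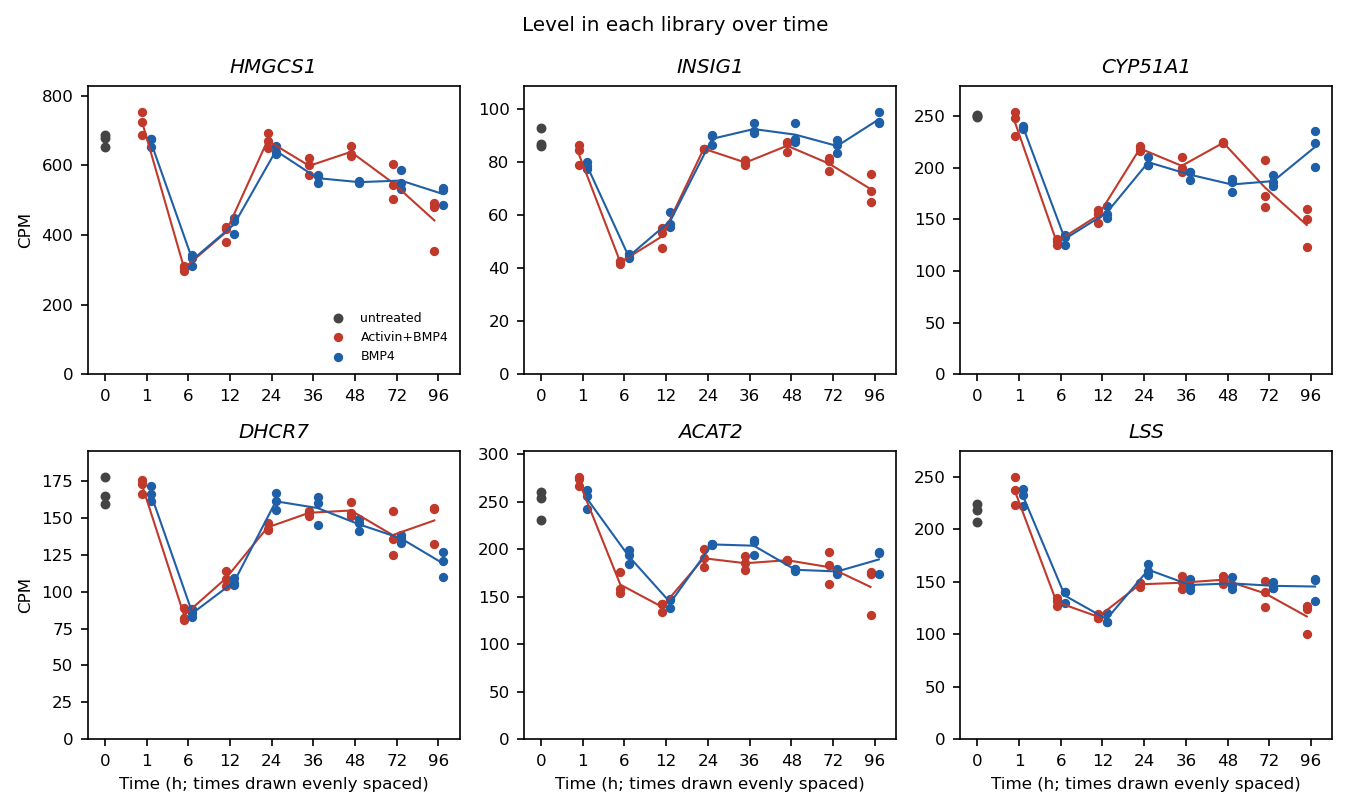
CPM of single libraries (points) and group means (lines) over all times for HMGCS1, INSIG1, CYP51A1, DHCR7, ACAT2 and LSS, with Activin+BMP4 and BMP4 in separate colours and times drawn evenly spaced. HMGCS1, INSIG1 and DHCR7 are lowest at 6 h, with INSIG1 at 41.6 to 45.2 CPM against 85.9 to 92.6 CPM untreated. HMGCS1 and INSIG1 are near untreated cells at 24 h, whereas LSS is still below them in both conditions.

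Members differed in how far their course over the 17 group means followed the others. As a description over groups that share the untreated and early pattern, Pearson's r of a member's log2 CPM with the mean of the other members was 0.957 for HMGCS1, 0.940 for NSDHL, 0.929 for CYP51A1, 0.925 for SQLE, 0.922 for INSIG1 and 0.909 for DHCR7. It was over 0.5 for 23 of the 28. The members least like the rest were MSMO1 at 0.441, SC5D at 0.356, SREBF1 at 0.324, TM7SF2 at 0.0494 and PMVK at -0.0297.

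At 96 h the pathway was mostly below untreated cells. The median over members of the log2 group means against untreated had already been below 0 at 36, 48 and 72 h. It was -0.15, -0.10 and -0.21 in Activin+BMP4 and -0.11, -0.13 and -0.21 in BMP4 at these times. In Activin+BMP4 3 members were higher and 23 lower, with a median of -0.35, where 37.2% of all genes were higher and 32.6% lower. In BMP4 6 were higher and 16 lower, with a median of -0.18, where 35.4% were higher and 30% lower. The median over all genes was 0.04 in both. The comparisons share the untreated libraries. A 2-fold change was called by edgeR for 0 members in either condition (0 also at an unadjusted p under 0.05 with 2-fold, and 0 by DESeq2), against 26.5% and 23.2% of all genes. Without library 3 of Activin+BMP4 at 96 h, 21 members were lower and 3 higher in that condition, with a median of -0.29, and DHCR7 (-0.10, adjusted p = 0.119) and STARD4 (-0.08, adjusted p = 0.24) did not pass. Without library 3 of the untreated cells or library 1 of Activin+BMP4 at 96 h, 1 member was called 2-fold in Activin+BMP4. The share of counts from mitochondrial genes was 2.29 to 2.75% in untreated libraries, 1.15 to 1.80% in Activin+BMP4 and 0.77 to 1.60% in BMP4 at 96 h, and its part in these changes was not tested.

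SREBF1 had the largest change in Activin+BMP4 at 96 h. It measured 40.2, 31.6 and 29.1 CPM there and 52.8, 53.8 and 47.8 CPM in BMP4, all below the untreated 64.4 to 69.8 CPM, with a log2 fold change of -0.99 ± 0.08 (adjusted p = 1.3e-14) in Activin+BMP4. LSS was at 127, 124 and 100.4 CPM in Activin+BMP4 and 153, 152 and 131 CPM in BMP4, against 207 to 224 CPM untreated (-0.89 ± 0.06 and -0.57 ± 0.06). CYP51A1 fell by 0.79 on the log2 scale in Activin+BMP4, MVD by 0.76, ACAT2 by 0.63 and HMGCS1 by 0.61. HMGCS1 measured 493, 480.0 and 354 CPM in Activin+BMP4 and 531, 536 and 487 CPM in BMP4, and library 3 of Activin+BMP4 was the lowest of them.

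The members that rose at 96 h were TM7SF2, MSMO1 and FADS1 in Activin+BMP4. TM7SF2 measured 48.0, 50.1 and 43.5 CPM there against 23.3 to 26.5 CPM untreated, a log2 fold change of 0.94 ± 0.07. MSMO1 measured 253, 269 and 228 CPM against 158 to 162 CPM untreated (0.65 ± 0.04), and FADS1 rose by 0.20 ± 0.03. In BMP4 MVK rose most, from 16.3, 14.4 and 14.3 CPM to 23.6, 24.8 and 25.4 CPM (0.72 ± 0.09, adjusted p = 4.8e-09), with no overlap. In Activin+BMP4 MVK measured 16.3, 16.1 and 13.8 CPM, overlapped with untreated cells and did not pass (0.04 ± 0.09, adjusted p = 0.73). SC5D rose by 0.49 in BMP4, FADS1 by 0.36, MSMO1 by 0.35, SREBF2 by 0.13 and INSIG1 by 0.12. PMVK fell in BMP4 by 0.51 ± 0.08, to 12.9, 12.9 and 12.6 CPM. STARD4 measured 92.1, 83.6 and 79.8 CPM in BMP4 and 82.1, 86.2 and 82.9 CPM in untreated cells, which overlapped (0.02 ± 0.06, adjusted p = 0.74).

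From 72 h to 96 h more members fell than rose in Activin+BMP4, and more rose than fell in BMP4. In Activin+BMP4 2 members rose (TM7SF2 by 0.71 and MSMO1 by 0.23) and 15 fell, with a median of -0.15, where 16.2% of all genes rose and 17.3% fell. Without library 3 at 96 h 7 fell, with a median of -0.08, and without library 1 at 72 h 9 fell. When just the compared groups were fitted 1 fell and 1 rose. In BMP4 8 rose and 3 fell, where 15.2% rose and 14.9% fell. The 3 that fell in BMP4 were TM7SF2 at -0.56, DHCR7 at -0.19 and SREBF2 at -0.11, and the largest rises were MVK at 0.44, SC5D at 0.27 and CYP51A1 at 0.23.

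The conditions were compared directly at matched times in the same base medium. At 6 h 2 members differed (4.02% of all genes): ACAT2 was higher in BMP4 by 0.24 ± 0.07 (adjusted p = 0.0238) and SREBF1 lower by 0.28 ± 0.08 (adjusted p = 0.0204). ACAT2 no longer passed without library 2 or library 3 of Activin+BMP4, or library 1 or library 2 of BMP4, and SREBF1 without library 1 or library 2 of either condition. At 12 h 4 members differed (9.02% of all genes), by at most 0.19 on the log2 scale in size, 2 of them higher in BMP4 and 2 lower. None of the higher passed without library 3 of Activin+BMP4 or library 2 of BMP4, and 1 of the lower passed without library 2 of either. At 24 h 8 differed (29.3% of all genes) and at 36 h 8 differed (27.7% of all genes), led by SC5D at 0.37 ± 0.06 at 36 h and TM7SF2 at 0.30 ± 0.07 at 24 h. The members higher in BMP4 at 24 h went from 5 to 3 without library 2 of BMP4. The 1 member lower at 36 h did not pass without library 2 or 3 of Activin+BMP4 or library 1 or 2 of BMP4.

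At 48 h 6 members were higher and 7 lower in BMP4 than in Activin+BMP4, where 20.6% of all genes were higher and 20.4% lower. TM7SF2 measured 18.8, 19.3 and 17.1 CPM in Activin+BMP4 and 32.0, 32.9 and 35.7 CPM in BMP4, with no overlap (0.86 ± 0.07, adjusted p = 1.2e-13). SC5D measured 109.7, 123 and 115 CPM in Activin+BMP4 and 168, 169 and 159.8 CPM in BMP4 (0.52 ± 0.06, adjusted p = 6e-09). Without library 2 of Activin+BMP4, EBP did not pass (0.13, adjusted p = 0.0556) and STARD4 did (0.16, adjusted p = 0.0383). The lower genes were MVK, IDI1 and HMGCS1 of the mevalonate arm, SQLE, CYP51A1, FASN and FADS1. MVK measured 21.4, 18.7 and 18.3 CPM in Activin+BMP4 and 15, 16.3 and 16.2 CPM in BMP4 (-0.29 ± 0.09, adjusted p = 0.0091), and did not pass without library 1 of Activin+BMP4 (-0.23, adjusted p = 0.0759). NSDHL, a dehydrogenase of the demethylation steps, measured 41.4, 42.5 and 41.2 CPM and 41.4, 40.0 and 44.9 CPM, and the 2 ranges overlapped (0.01 ± 0.06, adjusted p = 0.9). The 3 primitive streak markers summed to 1290 to 1312 CPM in Activin+BMP4 and 311 to 327 CPM in BMP4 at this time, and their part in these differences was not tested.

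At 72 h 6 members were higher and 2 lower in BMP4 (18.9% and 20.7% of all genes), and without library 1 of Activin+BMP4 10 were higher and 1 lower. The lower count was also 1 without library 2 or 3 of Activin+BMP4 or of BMP4. SREBF1 measured 43.2, 41.9 and 36.2 CPM in Activin+BMP4 and 55.8, 56.4 and 54.3 CPM in BMP4 (0.46 ± 0.08, adjusted p = 6.5e-06). SC5D measured 130.1, 109 and 106 CPM in Activin+BMP4 and 151, 155 and 162 CPM in BMP4 (0.44 ± 0.06). FADS1 was lower in BMP4, with 356, 352 and 352 CPM in Activin+BMP4 and 303, 305 and 307 CPM in BMP4 (-0.21 ± 0.03, adjusted p = 2e-07). MSMO1 was at 224, 208 and 207 CPM and 212, 215 and 211 CPM, overlapping, with a difference of -0.00 (adjusted p = 0.97).

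At 96 h 19 members were higher in BMP4 than in Activin+BMP4 and 3 lower, with a median of 0.23, where 28% of all genes were higher and 26.4% lower and the median over all genes was 0.00. By role, 6 of 7 mevalonate genes, 3 of 3 squalene and lanosterol genes, 4 of 8 genes from lanosterol to cholesterol, 3 of 4 regulators and 3 of 6 fatty acid genes were higher. All 3 lower members, TM7SF2, DHCR7 and MSMO1, act between lanosterol and cholesterol. Without library 3 of Activin+BMP4, and also without all 3 libraries that stood apart, 17 were higher and 3 lower. Without library 3 the median was 0.12. ACAT2 (0.11, adjusted p = 0.123), HMGCS1 (0.09, adjusted p = 0.194) and STARD4 (0.10, adjusted p = 0.179) then did not pass, and SREBF2 (0.10, adjusted p = 0.0135) did. In bulk libraries fewer cells of a type and less RNA per cell cannot be told apart. At this time 4 definitive endoderm markers summed to 468 to 627 CPM in Activin+BMP4 and 66.8 to 77.6 CPM in BMP4, 5 mesoderm markers to 7.27 to 10.6 CPM and 768 to 879 CPM, and 4 amnion markers to 5.99 to 6.60 CPM and 608 to 712 CPM. The 6 pluripotency markers summed to 2158 to 2424 CPM and 1255 to 1349.9 CPM, and no marker of these 4 lists was at 0 in either group. The 3 primitive streak markers summed to 443 to 577 CPM and 147 to 180.3 CPM, 2 neural markers to 31.1 to 44.2 CPM and 8.53 to 13.5 CPM, and 4 trophoblast markers to 0.27 to 0.80 CPM and 1.54 to 2.23 CPM, with 2 of the 4 at 0 in Activin+BMP4. The part of these markers in the differences was not tested.

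TM7SF2 (chr11:65111845-65116384) stood out at 96 h. It measured 48.0, 50.1 and 43.5 CPM in Activin+BMP4 and 22.7, 20.7 and 22.2 CPM in BMP4, so that every Activin+BMP4 library was above every BMP4 library. The difference was -1.11 ± 0.07 (adjusted p = 3.2e-18), the single 2-fold call among the members, against 7.95% of all genes called 2-fold lower. At 48 h the same gene had differed in the opposite direction, and at 72 h its 30.3, 29.6 and 26.9 CPM in Activin+BMP4 and 34.2, 31.3 and 31.3 CPM in BMP4 did not pass (0.16, adjusted p = 0.062). MSMO1 was lower in BMP4, at 203, 204 and 202 CPM against 253, 269 and 228 CPM (-0.30 ± 0.04, adjusted p = 7.1e-08). DHCR7 measured 127, 121 and 110.2 CPM in BMP4 and 157, 156 and 132 CPM in Activin+BMP4 (-0.31 ± 0.06).

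The opposite end was held by SC5D and MVK. SC5D (chr11:121292453-121308694) measured 189.6, 192 and 184 CPM in BMP4 and 108, 114 and 88.4 CPM in Activin+BMP4, with no overlap (0.87 ± 0.06, adjusted p = 1.5e-15). MVK was higher in BMP4 by 0.68 ± 0.09 (adjusted p = 1.9e-08), with 13.8 to 16.3 CPM in Activin+BMP4 and 23.6 to 25.4 CPM in BMP4. SREBF1 was higher by 0.62 ± 0.08, CYP51A1 by 0.61 ± 0.06, with 236, 225 and 201 CPM against 150.4, 159.9 and 124 CPM, and INSIG1 by 0.46 ± 0.04, with 98.6, 94.8 and 94.4 CPM against 68.9, 75.4 and 64.9 CPM. PMVK did not pass, with 12.9, 12.9 and 12.6 CPM in BMP4 inside the 11.4 to 13.6 CPM of Activin+BMP4 (0.04 ± 0.08, adjusted p = 0.69). EBP, SREBF2, ACACA, FASN and FADS2 did not pass either. SREBF2 measured 328, 324 and 319.6 CPM in BMP4 and 303, 299 and 334 CPM in Activin+BMP4.

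**Figure D4:**
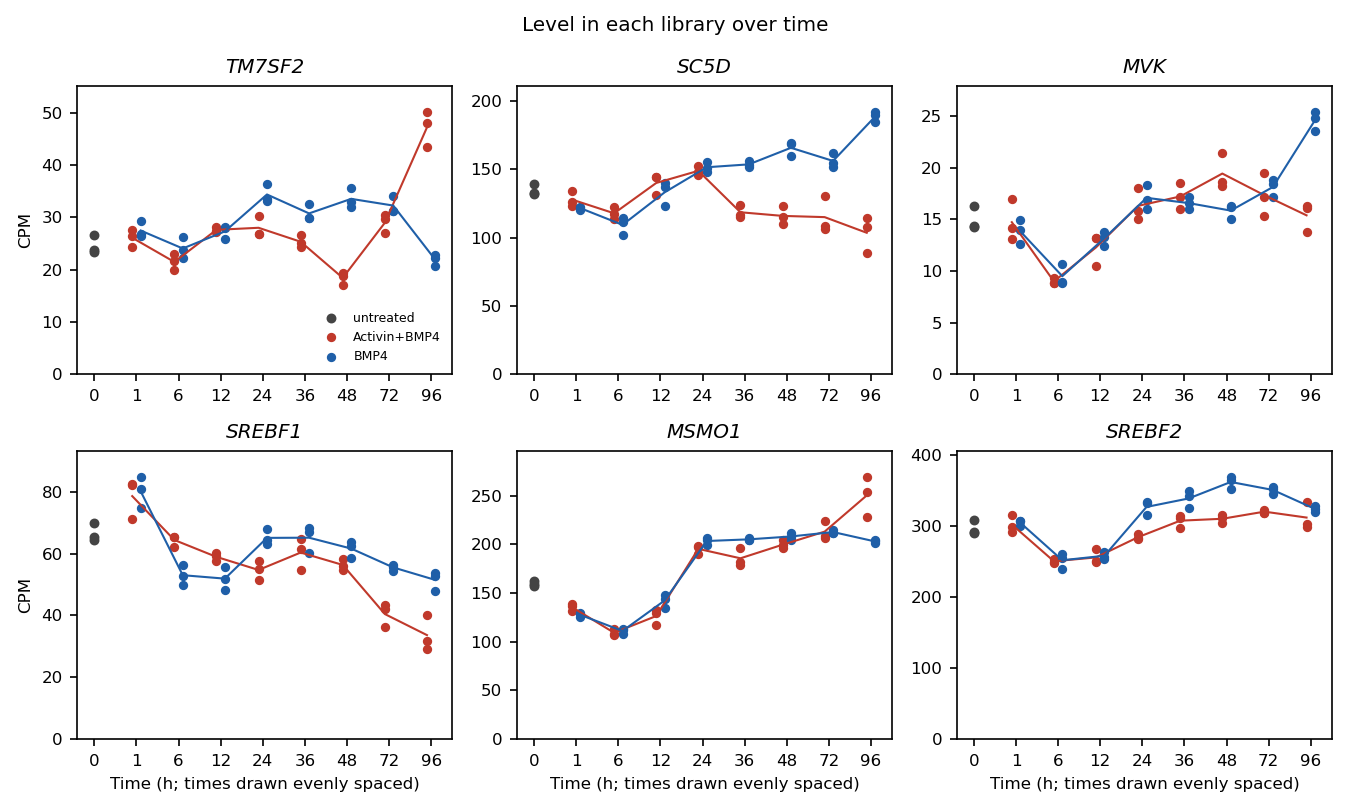
CPM of single libraries (points) and group means (lines) over all times for TM7SF2, SC5D, MVK, SREBF1, MSMO1 and SREBF2 in Activin+BMP4 and BMP4, with times drawn evenly spaced. TM7SF2 is higher in BMP4 at 48 h and higher in Activin+BMP4 at 96 h (43.5 to 50.1 against 20.7 to 22.7 CPM), while SC5D and MVK are higher in BMP4 at 96 h.

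The difference between conditions itself changed with time. From 48 h to 96 h it moved towards BMP4 for 19 members and away for 4 (24.5% and 24.2% of all genes) by the interaction test, and from 24 h to 96 h for 16 and 4 (23.6% and 21.8% of all genes). TM7SF2 changed most, by -1.97 ± 0.10 between 48 h and 96 h (adjusted p = 1.2e-20), the single 2-fold call, against 8.50% of all genes called 2-fold lower. Without library 2 or 3 of Activin+BMP4 at 48 h, library 1 or 2 of Activin+BMP4 at 96 h or library 1 of BMP4 at 96 h, 2 members were called 2-fold. Without library 3 of Activin+BMP4 at 96 h the median over members of the change from 48 h was 0.21 rather than 0.31, and HMGCS1, SREBF1 and SREBF2 did not pass from 24 h to 96 h. MVK changed by 0.97 ± 0.13 and CYP51A1 by 0.89 ± 0.09, and both were lower in BMP4 at 48 h and higher at 96 h. MSMO1 changed by -0.36, DHCR7 by -0.22 and SREBF2 by -0.17.

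**Figure D5:**
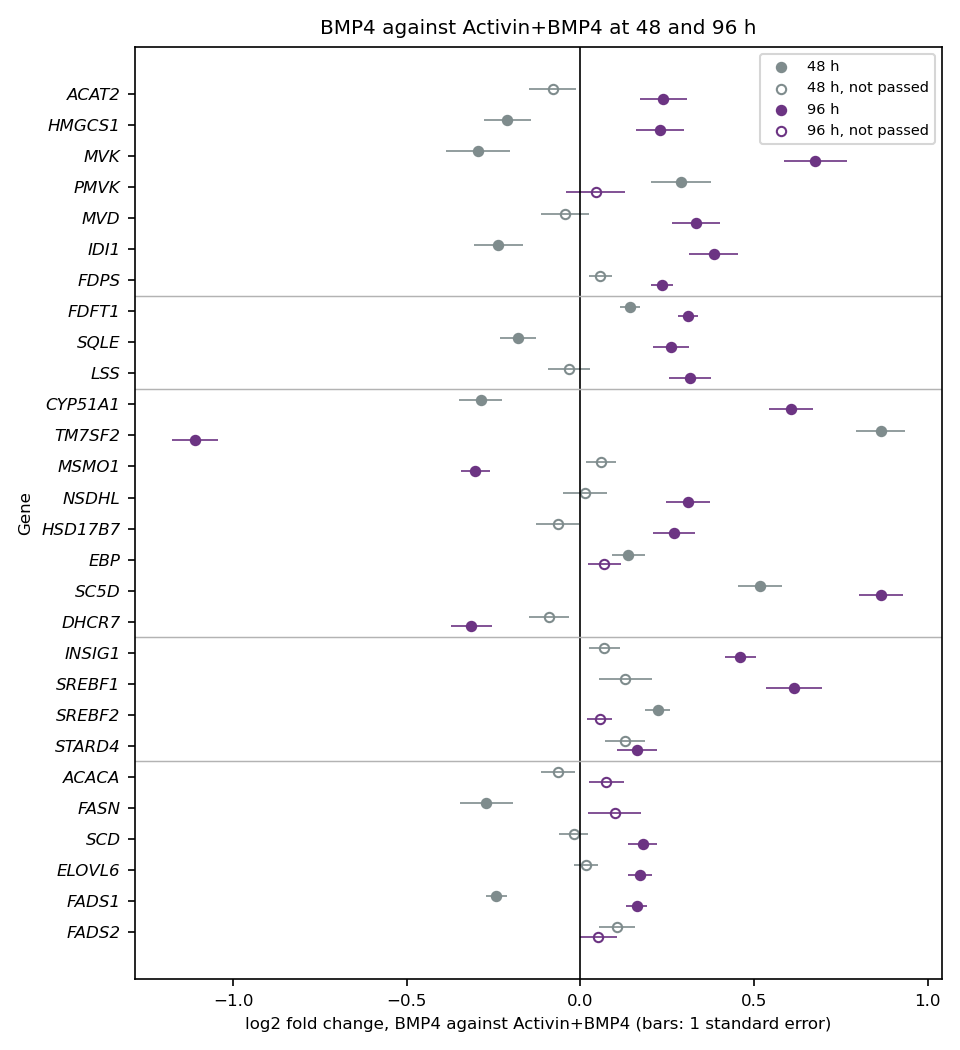
Log2 difference of BMP4 from Activin+BMP4 with its standard error (x axis) for each of the 28 members (y axis, by role) at 48 h and 96 h, with open circles for values that did not pass. At 96 h 19 members lie to the right of 0 and pass, and TM7SF2 moves from 0.86 at 48 h to -1.11 at 96 h.

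Genes of neighbouring pathways are given by their counts, beside the shares of all genes. At 6 h 17.7% of all genes rose and 18.4% fell in Activin+BMP4, and 16.6% rose and 18.2% fell in BMP4. Of 17 genes of sterol sensing and uptake, 1 rose and 9 fell at 6 h in each condition, with medians of -0.17 and -0.16. LPIN1, a phosphatidate phosphatase of lipid synthesis, fell from 13.6 CPM to 5.31 CPM in Activin+BMP4 (-1.35 ± 0.09) and 4.13 CPM in BMP4 (-1.72 ± 0.09). VLDLR, a lipoprotein receptor, went from 69.6 CPM to 41.4 and 42.9 CPM at 6 h. Of 10 genes of sterol efflux and oxysterol formation, 3 rose and 2 fell at 6 h in each. ABCA1, the cholesterol exporter, went from 41.1 CPM untreated to 83.8 CPM in Activin+BMP4 (1.03 ± 0.15) and 66.8 CPM in BMP4 at 6 h. Of 24 tested genes of other fatty acid synthesis and activation, 3 rose and 11 fell at 6 h in Activin+BMP4 and 3 rose and 13 fell in BMP4, with medians of -0.15 and -0.16. ACSS2, which makes acetyl-CoA from acetate and was chosen after its values were seen, went from 31.6 CPM to 13.8 and 15.3 CPM. Of 13 genes of fatty acid oxidation, 4 rose and 4 fell in Activin+BMP4, and 3 rose and 4 fell in BMP4.

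At 96 h 37.2% of all genes were higher than in untreated cells and 32.6% lower in Activin+BMP4, and 35.4% and 30% in BMP4. Of the 17 genes of sterol sensing and uptake, 12 were higher and 4 lower in Activin+BMP4 (median 0.34), and 9 and 6 in BMP4 (median 0.20). Of the 10 genes of sterol efflux and oxysterol formation, 6 were higher and 2 lower in Activin+BMP4, and 2 and 2 in BMP4. Of the 24 other fatty acid genes, 11 were higher and 9 lower in Activin+BMP4, and 9 and 12 in BMP4. Of the 13 genes of fatty acid oxidation, 8 were higher and 2 lower in Activin+BMP4, and 7 and 3 in BMP4. The medians of these 3 lists were between -0.11 and 0.24, against 0.04 over all genes.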

How the data were processed

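Total RNA of 51 libraries was made into libraries with the KAPA RNA HyperPrep kit, per the labels' protocols. The authors deposited 1 table of whole-number read counts per gene. Per the submitters' processing notes the tools were cutadapt 1.5, STAR 2.5.2a and RSEM 1.3.0 and the build GRCh38. Their settings, the strand setting and the annotation are not given in the sources used here. Counts were tested with edgeR 4.0.16 (R 4.3.3), all 51 libraries in 1 quasi-likelihood fit with a mean per group, TMM factors (0.966 to 1.03) and filterByExpr (count minimum 10, total 15). The 42 contrasts were adjusted over all 19603 genes by the Benjamini-Hochberg method. The test was tried on simulated counts for BMP4 against Activin+BMP4 at 96 h (18846 genes). Of genes raised 2-fold 50 of 50 passed, of those raised 1.5-fold 47 of 50, and of those raised 1.25-fold 31 of 50. Of genes lowered to 0.5-fold 49 of 50 passed, as did 8 of 18646 unchanged genes. The changed genes were drawn from those with over 50 expected counts per library. They were few, whereas in the data 54.4% of all genes passed in this comparison. The simulated shares therefore do not carry over to the data, where FADS1 passed at a log2 difference of 0.16. In the simulation changes of 1.25-fold and some of 1.5-fold were missed, and small changes in the data could be missed too. RPKM used the union of GENCODE exons. The replicate numbers did not pair the samples.

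The members and lists were chosen with earlier results of these data known. Genes described by library were, in each main comparison, the 3 with the largest and the 1 with the smallest change (at least 10 CPM), those that passed against the members' median, and others of the 28 for their role. Other lists show at most 4 genes, those with the largest 2-fold calls. Alternatives were other scalings, filters, thresholds, DESeq2, a replicate block, only the groups compared, and leaving out libraries.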

Additional observations from a re-analysis of the deposited data

Results flagged for a closer look

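Some differences between BMP4 and Activin+BMP4 changed with time by the interaction test itself. Between 6 h and 24 h this held for 2 of the 28 members, SREBF1 and SREBF2 (15.6% of all genes). Between 24 h and 96 h the difference moved towards BMP4 for 16 members and towards Activin+BMP4 for 4 (23.6% and 21.8% of all genes). Between 48 h and 96 h it did so for 19 and 4 (24.5% and 24.2% of all genes). Without library 3 of Activin+BMP4 at 96 h the median over members of the change from 48 h was 0.21 rather than 0.31. The largest single changes from 48 h to 96 h were TM7SF2 at -1.97, MVK at 0.97 and CYP51A1 at 0.89 on the log2 scale. Groups of 3 libraries were not tested for outlying samples.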

How the results depend on the processing

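For the comparisons with untreated cells at 1, 6, 12, 24 and 96 h, the steps 1 h to 6 h, 6 h to 12 h, 12 h to 24 h and 72 h to 96 h, the conditions at matched times from 6 h, and the interactions, the counts of members that passed stayed within 1.5 times under RLE factors, no scaling factors, no or a stricter filter (1 CPM in 3 libraries), DESeq2, fits of only the groups compared and leaving out libraries, apart from those named here. The numbers of the replicates did not pair the samples, and the replicate block changed no count by over 1.5 times (BMP4 against Activin+BMP4 at 96 h was again 19 higher and 3 lower, and 6 members rather than 5 fell from 6 h to 12 h in BMP4). The threshold set the counts of 2-fold members: at 1.5-fold and with no fold threshold they were 12 and 26 for Activin+BMP4 at 6 h against untreated, 10 and 26 for BMP4 at 6 h, 8 and 26 for Activin+BMP4 at 96 h, 1 and 22 for BMP4 at 96 h, 5 and 22 between the conditions at 96 h, and 4 and 23 for the interaction of 48 h and 96 h. For BMP4 at 6 h the 2-fold count was 2 with RLE factors or DESeq2, 0 with no scaling factors, and 0 to 3 when a library was left out. For Activin+BMP4 at 96 h it was 1 with the stricter filter or only the groups compared and 0 to 1 when a library was left out, and for the interaction 1 to 2. Between the conditions at 6 h 3 members were higher with no scaling factors and 2 with DESeq2, and leaving out a library gave 0 to 1 higher and 0 to 1 lower. At 72 h leaving out a library gave 4 to 10 higher and 1 to 2 lower, and 1 member was lower with RLE factors, no scaling factors, no filter, the stricter filter or only the groups compared. The members that fell from 6 h to 12 h in Activin+BMP4 were 1 to 3 when a library was left out, and the interaction of 48 h and 96 h had 2 lower members with only the groups compared. With only the groups compared the counts moved most: at 1 h 10 members were higher in Activin+BMP4, and 6 higher and 4 lower in BMP4; from 72 h to 96 h in Activin+BMP4 1 rose and 1 fell; between the conditions 0 were higher at 12 h, 10 higher and 6 lower at 24 h and 3 lower at 36 h; 1 was higher at 12 h in Activin+BMP4, and 2 were lower in each interaction of 6 h with 12 h and 24 h. With no scaling factors 1 was higher at 12 h in each condition, 5 fell from 72 h to 96 h in BMP4, 8 were higher in BMP4 at 24 h and 1 was lower in both early interactions. With no filter 2 were higher and 4 lower at 1 h in BMP4, 1 was higher in BMP4 at 12 h, 2 were lower at 36 h and 1 was lower in the interaction with 12 h. DESeq2 gave 1 lower in both early interactions, and RLE factors or the stricter filter 1 in that with 24 h. The stricter filter gave 2 lower at 36 h. Without the 3 libraries that stood apart 1 was higher at 12 h in Activin+BMP4, 9 fell from 72 h to 96 h there, 2 were lower at 36 h and 1 in the interaction with 24 h. Leaving out a library gave 0 to 4 higher at 1 h in Activin+BMP4, 0 to 1 higher and 1 to 2 lower at 1 h in BMP4, 0 to 1 higher at 12 h in each, 7 to 18 lower from 72 h to 96 h in Activin+BMP4, 0 to 2 higher and 1 to 2 lower between the conditions at 12 h, 3 to 5 higher at 24 h, 0 to 1 lower at 36 h and 0 to 1 lower in the interaction with 24 h. The looser sterol element moved its share of member promoters from 3.13% to 21.9%, since it asks for fewer letters.

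The sign changed only for values that had not passed. TM7SF2 at 6 h of BMP4 was 0.018 with no scaling factors and -0.10 to 0.024 without a library, and MVD from 6 h to 12 h in Activin+BMP4 0.0074 and -0.066 to 0.038. PMVK from 6 h to 12 h in BMP4 was -0.0016 with RLE factors, -0.0018 with no filter, -0.0036 with the stricter filter, -0.0011 with DESeq2, -0.023 without the 3 libraries that stood apart and -0.051 to 0.055 without a library. MSMO1 between the conditions at 72 h was 0.0075 with no scaling factors, 0.00013 with no filter, 0.0049 with the stricter filter, 0.00090 without the 3 libraries, 0.0030 with only the groups compared and -0.021 to 0.039 without a library. STARD4 at 96 h of BMP4 was -0.0013 with the stricter filter and -0.039 to 0.059 without a library. Without a library MVK at 96 h of Activin+BMP4 was -0.0063 to 0.11, NSDHL between the conditions at 48 h -0.039 to 0.042 and PMVK at 96 h -0.017 to 0.11. The causes were not tested. At this depth the standard error from 6 h to 12 h in Activin+BMP4 was 0.10 for MVK, at 8.99 CPM at 6 h, and 0.07 for HMGCS1, at 304.9 CPM, and differences within such errors were not detectable.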

Other observations

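At 96 h 28% of all genes were higher in BMP4 than in Activin+BMP4 and 26.4% lower, and the neighbouring lists are given beside these shares. Of 17 genes of sterol sensing and uptake 7 were higher and 7 lower in BMP4, with a median of -0.01, and of 10 genes of sterol efflux and oxysterol formation 0 were higher and 2 lower, with a median of -0.05. VLDLR was at 116.4 CPM in Activin+BMP4 and 44.2 CPM in BMP4 (-1.40 ± 0.04), against 69.6 CPM untreated. NPC2, a cholesterol carrier of the lysosome, was at 165.8 and 95.4 CPM against 72.1 CPM untreated, and SOAT1, which esterifies cholesterol, at 31.3 and 38.7 CPM against 9.25 CPM. ABCA1 was at 114.3 CPM in Activin+BMP4 and 50.4 CPM in BMP4 (-1.18 ± 0.14). CYP27A1, a sterol hydroxylase of the mitochondrion, was at 36.2 and 34.4 CPM against 3.11 CPM untreated.

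Of 24 tested genes of other fatty acid synthesis and activation 7 were higher and 12 lower in BMP4 at 96 h, with a median of -0.15. ELOVL2, which lengthens polyunsaturated fatty acids, was at 0.83 CPM in untreated cells, 62.6 CPM in Activin+BMP4 and 2.28 CPM in BMP4 (-4.78 ± 0.15 between the conditions). Of 13 genes of fatty acid oxidation 5 were higher and 5 lower. CPT1A, which brings fatty acids into the mitochondrion, was at 18.7 CPM in Activin+BMP4 and 7.52 CPM in BMP4 (-1.32 ± 0.09). PPARA, a receptor that governs oxidation genes, had been at 6.89 CPM untreated and at 2.94 and 2.77 CPM at 6 h, and was at 15.4 and 14.4 CPM at 96 h. The endoderm, mesoderm and amnion markers given in the results differ between these groups, and their part in these values was not tested.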
